A study of Homo sapiens with 5 samples.

Results

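The TEAD4 peaks described here lie deep inside genes. A peak was taken as deep intronic when its summit fell in the body of a protein-coding gene, in no exon of a protein-coding gene, and more than 10 kb from every transcription start site (TSS) of protein-coding and lncRNA genes. Of the 21113 TEAD4 peaks of the series, 4824 met this rule (22.8%, Wilson 95% interval 22.3 to 23.4%). The chromatin came from LX-2 cells, an established line of human hepatic stellate cells and the human model of myofibroblastic hepatic stellate cells (MF-HSCs), the collagen-producing cells of the fibrotic liver. All cells had received only DMSO, the solvent used as the vehicle, so no treated group enters this description. TEAD4 was immunoprecipitated from 3 biological replicates with 2 input samples, and the peak list combines replicates 1 and 3, because the authors left out replicate 2 as not concordant enough. The list gives 1 signal value and 1 score per peak for both replicates together, so a spread between replicates cannot be given and the depth per sample is unknown. Intervals below cover counting error over peaks only, and in every test the unit is the peak and n counts peaks, so that no p-value measures the spread between cultures. LX-2 is a single line, and what is seen in it may not hold in primary cells.

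TEAD factors bind DNA at a short site and depend on co-activators, chiefly YAP1 and its paralogue TAZ, to switch genes on. The Hippo kinases keep YAP1 and TAZ out of the nucleus, and stiff matrix and cell spreading let them in, which is why TEAD activity is tied to fibrosis. Much of the binding of TEAD factors is known to lie at enhancers, often together with AP-1, the dimer of FOS and JUN proteins, and many enhancers sit in long introns. An intronic site does not have to act on the gene that holds it.

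The sequences under the summits show what the members look like. The 81 bases centred on the summit are printed on the plus strand of hg38, in lower case, with the TEAD motif (ACATTCC, or GGAATGT where it lies on the minus strand) and the AP-1 motif (TGACTCA or TGAGTCA) in capitals. The first 3 are the strongest members with both motifs within 40 bp of the summit. They lie in introns of DOCK3 (chr3:51340670-51340750, signal value 543.5), DDAH1 (chr1:85329089-85329169, 406.5) and PARD3B (chr2:204665429-204665509, 403.6). In PARD3B both motifs share 1 base, so that their centres lie 6 bp apart.
DOCK3: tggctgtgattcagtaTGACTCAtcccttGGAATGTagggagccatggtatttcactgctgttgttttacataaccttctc
DDAH1: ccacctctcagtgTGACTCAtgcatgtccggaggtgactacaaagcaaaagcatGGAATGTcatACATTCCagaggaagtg
PARD3B: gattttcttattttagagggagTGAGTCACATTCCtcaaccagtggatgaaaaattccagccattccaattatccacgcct

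Strong members with the TEAD motif alone lay in NDUFA12 (chr12:94983869-94983949, signal value 660.8) and PALM2AKAP2 (chr9:110029481-110029561, 542.2). UNC5C (chr4:95267226-95267306, 343.3) is shown because it carries 2 TEAD motifs in the same orientation. PIK3CB (chr3:138823884-138823964, 574.6) held AP-1 alone, and IQCJ-SCHIP1 (chr3:159458035-159458115, 700.2) held neither motif although it was among the 10 strongest members.
NDUFA12: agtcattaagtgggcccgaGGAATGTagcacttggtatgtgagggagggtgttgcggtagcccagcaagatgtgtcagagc
PALM2AKAP2: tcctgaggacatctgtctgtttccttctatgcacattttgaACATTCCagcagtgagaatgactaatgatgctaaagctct
UNC5C: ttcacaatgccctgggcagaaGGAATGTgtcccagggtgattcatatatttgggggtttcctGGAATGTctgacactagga
PIK3CB: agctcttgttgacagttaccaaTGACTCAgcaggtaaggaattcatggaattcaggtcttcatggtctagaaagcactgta
IQCJ-SCHIP1: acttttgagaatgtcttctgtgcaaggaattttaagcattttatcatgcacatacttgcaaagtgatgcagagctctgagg

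Members in 3 genes that the study itself discusses also carried a TEAD motif near the summit. They lie in COL5A2, a fibrillar collagen gene (chr2:189130074-189130154, signal value 216.0), in BNC2, which encodes a zinc finger protein (chr9:16425513-16425593, 125.4), and in TEAD1, a paralogue of TEAD4 (chr11:12900746-12900826, 51.7).
COL5A2: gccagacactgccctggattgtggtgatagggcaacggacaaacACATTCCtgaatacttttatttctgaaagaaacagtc
BNC2: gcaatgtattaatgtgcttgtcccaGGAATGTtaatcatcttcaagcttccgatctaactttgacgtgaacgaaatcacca
TEAD1: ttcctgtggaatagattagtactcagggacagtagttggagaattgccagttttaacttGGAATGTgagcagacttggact

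Deep intronic sequence held TEAD4 summits in proportion to its size. It made up 22.8% of the bases of chromosomes 1 to 22, X and Y outside assembly gaps (670.0 Mb), the same share as that of the peaks. The density was 7.20 summits per Mb (exact Poisson 95% interval 7.0 to 7.41), beside 7.18 per Mb in all other sequence. It lay between that of introns 2.5 to 10 kb from a TSS (8.68 per Mb, interval 8.36 to 9.0, 2853 peaks) and that of intergenic sequence 2.5 to 100 kb from a TSS (6.26 per Mb, interval 6.11 to 6.41, 6882 peaks). Promoters within 2.5 kb of a TSS had 14.5 per Mb, and intergenic sequence more than 100 kb from any TSS had 2.52 per Mb. The intervals of the last 4 classes did not overlap that of the deep intronic class. The share moves with the rule itself: it was 30.8% for summits more than 5 kb from a TSS, 11.9% for more than 25 kb, and 35.3% when only 1 TSS per gene was used. Beside the threshold of 10 kb, 114 members lay within 500 bp beyond it, with a median signal value of 72.2, and 131 intronic peaks lay within 500 bp on the other side, with a median of 68.3.

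The members did not differ from all other peaks in strength beyond the error. Their signal value, the enrichment that the peak caller gave each peak, had a median of 68.4 (quartiles 46.0 and 113.6, range 6.61 to 747.1), and that of all other peaks was 67.9. In a linear model of the log2 signal value with errors clustered on chromosome, the ratio of geometric means was 0.998 (95% interval 0.976 to 1.02, n = 4824 and n = 16289 peaks, adjusted p = 0.845). Against introns nearer a TSS it was 1.02 (interval 0.985 to 1.05, n = 2853 peaks in that class, adjusted p = 0.421). Against intergenic peaks it was 0.974 (interval 0.948 to 1.00, n = 6882 peaks in that class, adjusted p = 0.172). The call against intergenic peaks changed in 3 of 8 alternatives, where the members were weaker: with overlapping peaks merged (0.969, n = 4441 members, adjusted p = 0.0234), at 5 kb from a TSS (0.966, n = 6511, adjusted p = 0.0180) and with peak width in the model (0.970, n = 4824, adjusted p = 0.0493). The highest IDR score, 1000, was reached by 76.3% of the members. Signal value did not follow the distance to the TSS: Spearman's rho over the 4824 members, which share 1 pair of libraries, was -0.01.

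Members had another summit nearby as often as other peaks did. Another summit lay within 10 kb of 2297 members (47.6%), and over all peaks of the list that share was 47.5%. Summits of overlapping peaks count here as neighbours, and 758 members (15.7%) overlapped another peak of the list. The odds ratio against all other peaks was 1.01 (95% interval 0.920 to 1.10, logistic model, n = 4824 and n = 16289 peaks, adjusted p = 0.876). Against introns nearer a TSS, where 51.1% had a neighbour, it was 0.870 (interval 0.758 to 0.998), which did not pass after adjustment over the 3 comparisons (n = 2853 peaks in that class, adjusted p = 0.141). That comparison passed with other settings, among them only 1 TSS per gene (0.783, n = 7456 members under that setting, adjusted p = 0.00445), and in the stronger peaks, those above the median signal value (0.799, n = 2425 members, adjusted p = 0.0248). The rule itself sets how far each class lies from a TSS, and promoters had the densest summits (14.5 per Mb). The neighbour comparisons are thus not independent of the rule. The cause was not tested.

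The TEAD motif stood over the summits. It was found within 100 bp of 1092 members (22.6%), against 23.0% of all peaks in the list, and in 2.93% of the flanking windows, which are equally wide and lie 2000 bp left and right of each summit (odds ratio 9.68, 95% interval 8.37 to 11.2, logistic model, n = 4824 members and n = 9648 windows, adjusted p = 8.21e-204). The AP-1 motif was more frequent, in 1339 members (27.8%, against 25.4% of all peaks), and in 3.35% of the flanking windows (odds ratio 11.1, interval 9.89 to 12.4, with a p-value below what the software can hold). The RUNX motif TGTGGTT, the site of another family of mesenchymal regulators, was found in 10.5% of the members, 9.53% of all peaks and 3.92% of the flanking windows (odds ratio 2.87, interval 2.62 to 3.16, n = 4824, adjusted p = 8.75e-107). The E-box CAGATG, a site of helix-loop-helix factors, differed less, with 17.4% of the members, 16.7% of all peaks and 13.8% of the flanking windows (odds ratio 1.31, interval 1.19 to 1.44, n = 4824, adjusted p = 1.85e-08). The TEAD letters read backwards (CCTTACA), a control of the same composition, were found in 1.84% of the members and 2.08% of the flanking windows (odds ratio 0.883, interval 0.679 to 1.15, n = 4824, adjusted p = 0.355).

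The motifs differed in how closely they sat on the summit. Within 25 bp of the summit there were 3.06 TEAD sites per kb, 20.2 times the density over all deep intronic sequence (0.151 per kb). The AP-1 density there was 2.29 per kb, 14.5 times that over all deep intronic sequence. Against the sequence 200 to 250 bp away, the TEAD density at the summit was 12.1 times higher and the AP-1 density 6.91 times. Most sites in deep introns lay under no summit: of 101460 TEAD motifs in deep intronic sequence, 1192 (1.17%, Wilson 95% interval 1.11 to 1.24%) were within 100 bp of a member, and of 105841 AP-1 motifs 1446 (1.37%, interval 1.30 to 1.44%) were. Of 1182 TEAD sites at members whose host genes run in 1 direction, 45.1% (interval 42.3 to 47.9%) were on the strand of the gene, and over all TEAD sites in deep introns that share was 46.2%.

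No difference in TEAD or AP-1 motifs between deep intronic and other distal peaks was detected. For TEAD, the odds ratio against all other peaks was 0.976 (95% interval 0.891 to 1.07, n = 4824 and n = 16289 peaks, adjusted p = 0.951), and it was 1.00 against introns nearer a TSS (interval 0.894 to 1.13) and 0.959 against intergenic peaks (interval 0.874 to 1.05), neither of which passed. For AP-1, it was 1.17 against all other peaks (interval 1.09 to 1.26, n = 4824 and n = 16289, adjusted p = 9.99e-05 over 8 comparisons), since 24.7% of those held the motif. Against introns nearer a TSS it was 1.01 (interval 0.905 to 1.13, n = 2853 peaks in that class, adjusted p = 0.951), and against intergenic peaks it was also 1.01 (interval 0.930 to 1.09, n = 6882, adjusted p = 0.951). The share was lower in promoter peaks (18.7%), which are part of all other peaks, and their median GC content was 51.2%, beside 42.8% at the members. AP-1 no longer passed among peaks above the median signal value (odds ratio 1.12, n = 2425 and n = 8131 peaks, adjusted p = 0.126). RUNX was slightly more frequent than in all other peaks (odds ratio 1.15, interval 1.03 to 1.28, n = 4824 and n = 16289, adjusted p = 0.0486), but not with the GC content of the window in the model (1.05, adjusted p = 0.844). E-box shares did not differ beyond error (odds ratio 1.06, interval 0.987 to 1.15, n = 4824 and n = 16289, adjusted p = 0.282).

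Among the members, the TEAD share rose with strength over all groups, and the AP-1 share only from the weakest group to the next. With the members cut by rising signal value into 5 equally large groups, the TEAD share was 14.6%, 20.1%, 21.6%, 26.6% and 30.3%. The AP-1 share was 20.8% in the weakest group and then 30.8%, 29.5%, 28.8% and 28.9%. The median signal value was 63.2 in members with neither motif, 67.5 with AP-1 alone, 81.4 with TEAD alone and 89.0 with both. With 2 or more TEAD motifs, which 86 members (1.78%) had, it was 101.8. The weakest of the 5 groups also held the 157 members with a q-value above 0.05, whose signal values were 6.61 to 14.5. These are descriptions, with no test.

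**Figure D1:**
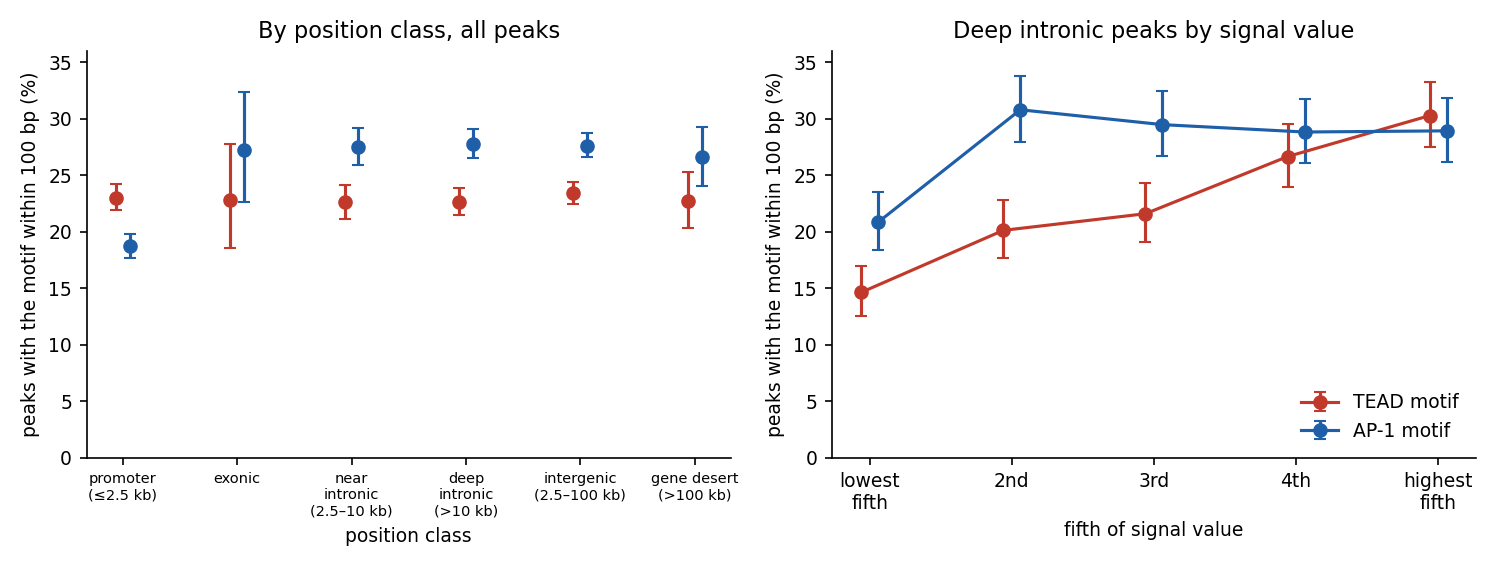
Left, the share of peaks with a TEAD (red) or AP-1 (blue) motif within 100 bp of the summit in 6 position classes; right, the same among the 4824 deep intronic peaks in 5 groups by signal value, each with Wilson 95% intervals. The TEAD share is 22.6 to 23.4% in all classes and rises with signal value from 14.6 to 30.3%, while the AP-1 share is lowest in promoters.

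Both motifs met in 228 members (4.73%, Wilson 95% interval 4.16 to 5.36%), and the product of their separate shares would be 6.28%. Put differently, AP-1 was found in 20.9% of members with a TEAD motif (interval 18.6 to 23.4%) and in 29.8% of those without (interval 28.3 to 31.3%). The same was seen in intergenic peaks, where the shares were 21.6% and 29.5%. In the flanking windows of the members the shares were 3.89% and 3.33%. Neither motif was found in 2621 members (54.3%). Where both were present, their centres lay a median of 38 bp apart, and 11 of the 228 pairs lay less than 10 bp apart. Of the 86 members with 2 or more TEAD motifs, 41 had the closest pair in the same orientation, 25 had them facing each other and 20 facing away.

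The 10 strongest members lay in 10 different genes. They lay in ROBO2, a guidance receptor gene (signal value 747.1), PDZD2 (733.5), PTPN1, which encodes a tyrosine phosphatase (721.7), IQCJ-SCHIP1 (700.2), PIK3C2G (682.0), GNG7 (662.8), NDUFA12 (660.8), MARCHF1 (643.2), TTC33 (630.1) and TTBK2 (588.5). The strongest, at chr3:76497633-76498139, lay 82459 bp from the nearest TSS and outside the introns of the canonical ROBO2 transcript. The TEAD motif was within 100 bp of the summit in 2 of the 10, PTPN1 and NDUFA12, AP-1 in ROBO2 and TTC33, and neither in the other 6. In the 90 members ranked next the TEAD share was 27.8%. PTPN1 held 2 TEAD motifs, the nearer one 74 bp from the summit, and this peak lay in intron 1 of 9.

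The median distance of the members to a TSS was 25936 bp (quartiles 16222 and 45718 bp), and 304 were more than 100 kb away. TEAD was found in 22.7% of the 1748 members 10 to 20 kb away, in 24.4% of the 270 members 100 to 200 kb away and in 26.5% of the 34 members beyond. The AP-1 shares were 28.1%, 27.8% and 14.7%, the last being 5 of 34 (Wilson 95% interval 6.45 to 30.1%). The farthest were a pair in intron 5 of IL1RAPL1 on the X chromosome, 553336 and 552427 bp from a TSS, with signal values of 50.5 and 122.8, followed by peaks in LRRC4C (478498 bp), FHIT (409694 bp) and GALNTL6 (336909 bp). The stronger of the IL1RAPL1 pair, at chrX:29663005-29663217, had a TEAD motif 23 bp and an AP-1 motif 17 bp from its summit. The median distance to the nearest exon of a protein-coding gene was 11406 bp. A lncRNA gene also covered 299 members (6.20%), beside 5.72% of deep intronic bases.

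First introns held more than their share. The first intron of the canonical transcript contained 1301 members (27%, Wilson 95% interval 25.7 to 28.2%) and 19.8% of deep intronic bases, which made 9.81 summits per Mb, against 6.56 per Mb in other introns. With first introns of any transcript the shares were 49.4% of the members and 40.1% of the bases. Motif shares and strength lay close together in both kinds of intron, with no test run. The TEAD share was 21.3% in first and 23.1% in other introns, the AP-1 share 26.7% and 28.1%, and the median signal value 68.8 and 68.4. Single genes with many members varied. PDE4D had 22 of its 27 members in the first intron, and EXT1, which encodes a heparan sulfate polymerase, 15 of 15. NRXN3 had 0 of 22 there, RUNX1 0 of 21 and RAD51B 0 of 15. These genes were picked for their high counts. The share of their deep intronic sequence in the first intron was not computed, so their counts show no preference.

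The members fell in 2078 host genes, 21.6% of the 9599 protein-coding genes with deep intronic sequence. Of these, 1050 held 1 member, 768 held 2 to 4, and 260 held 5 or more and together 39.6% of all members. The genes with the most were PDE4D, which encodes a cAMP phosphodiesterase (chr5:58969038-60522120, 27 members), NRXN3, a neurexin (22), SEMA5A, a semaphorin (22), RUNX1, a transcription factor (21), and IQCJ-SCHIP1, a readthrough gene that shares its introns with SCHIP1 (20). They were followed by THSD4 (18), NRG1, a ligand of ERBB receptors (16), MAGI2 (16), RAD51B (15) and EXT1 (15). These are long genes, with 262.8 to 1354 kb of deep intronic sequence, and each had at least 15.1 members per Mb. They were picked for their high counts, so densities above that of all genes are favoured by the choice. The intervals below do not allow for this. PDE4D had 22.1 members per Mb (exact Poisson 95% interval 14.5 to 32.1) and NRXN3 16.3 (interval 10.2 to 24.6), against 7.24 per Mb over all genes. SEMA5A had 54.9 per Mb (interval 34.4 to 83.1) and EXT1 57.1 (interval 31.9 to 94.1).

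Ranked by density instead, among genes with 5 or more members, short genes led. The cut of 5 members favours them, since a gene with little sequence reaches it only at a high density. All genes with 20 to 50 kb of deep intronic sequence together had 8.24 members per Mb. PTPN1 had 7 members in 47.5 kb of deep intronic sequence, or 147.5 per Mb (exact Poisson 95% interval 59.3 to 303.9). TRAM2, which has been tied to collagen synthesis in the endoplasmic reticulum, had 6 in 42.8 kb, or 140.1 per Mb (interval 51.4 to 305.0). XDH, HSF2BP, RXFP2, LRRC8D, PAG1 and ANKRD33B had 91.0 to 122.1 per Mb. Their intervals are wide and overlap each other. All 6 members of TRAM2 and 6 of the 7 of PTPN1 lay in the first intron. In PTPN1 that intron is 50772 bp long and may hold most of the deep intronic sequence of the gene. The share of such sequence in the first intron was not computed per gene, so these counts show no preference.

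Host size did not set the density evenly. It rose from 6.61 per Mb in genes with up to 20 kb of deep intronic sequence to 9.70 per Mb at 100 to 250 kb, and was lowest, 3.92 per Mb (exact Poisson 95% interval 3.63 to 4.24), in the 194 genes with more than 500 kb. Of those 194 genes, 66 held no member. The largest of them, named after their values were seen, were RBFOX1 (2115 kb), PTPRD (2104 kb), LRP1B (1815 kb), MACROD2 (1807 kb) and CSMD1 (1758 kb), several of which are best known from neurons.

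Among lists of genes with known roles, 9 of 11 had a higher density of members than the 7.24 per Mb of all protein-coding genes. No test was run on them, and the lists were chosen with earlier results known. Shares of genes depend on gene length, so each count is given beside its density. Density varied with host size too (9.70 per Mb at 100 to 250 kb of deep intronic sequence, 3.92 above 500 kb), and the lists were not matched for it. The intervals of the collagen, actomyosin and TGF-beta lists reach below 9.70 per Mb. Counts are to be read beside the 21.6% of all genes that held a member. Among genes with more than 100 kb of deep intronic sequence that share was 58.4%. In the lists it ran there from 33.3% (TGF-beta and BMP signalling, 2 of 6) to 100% (as in the Hippo pathway, 8 of 8), with collagens at 50% (9 of 18). The Hippo pathway list takes in upstream regulators and cofactors beside the core of the pathway. Of its 27 genes with deep intronic sequence, 21 held a member (77.8%, against 21.6% of all genes), with 20.5 members per Mb (exact Poisson 95% interval 15.1 to 27.2). YAP1, with 54.2 kb of such sequence, held none. FRMD6, which encodes an upstream FERM-domain protein, had 6 members, STK4, a Hippo kinase, 4, and TAOK3, a kinase upstream of it, 4. Of 13 genes of a YAP-TEAD target signature 9 held a member (20.4 per Mb), led by CRIM1, RBMS3 and ASAP1 with 8, 8 and 7. CCN1, CCN2 and ANKRD1, the classical targets, are short genes without deep intronic sequence and cannot hold a member.

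Genes of adhesion and matrix ranged widely. Integrins and focal adhesion genes had the highest density of all lists, 26.0 per Mb (exact Poisson 95% interval 20.1 to 33.0), with members in 18 of 33 genes. LPP, a zyxin-family protein of focal adhesions, had 12, and BCAR3, an adaptor of the docking protein p130Cas, 8. Matrix glycoproteins and cross-linkers had 16.9 per Mb, with 7 members in FBN1, the gene of the microfibril protein fibrillin, 6 in LTBP1, which encodes a binding protein of latent TGF-beta, and 4 in LOXL2, a cross-linking enzyme. Collagens were nearest to all genes, with 10.2 per Mb (interval 7.30 to 13.8). Members lay in 14 of 32 collagen genes, among them COL4A2 with 9, COL5A2 with 7 and COL15A1 with 5.

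Genes of the cytoskeleton lay above all genes but below most other lists. Actomyosin and contractile genes had 12.3 per Mb, with members in 23 of 33 genes. DST, which encodes the linker protein dystonin, had 11, PALLD, the gene of the stress fibre protein palladin, 8, and the formin gene DAAM1 6.

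Signalling and transcription factor genes were similar. Mesenchymal transcription factors and AP-1 had 14.8 per Mb, with members in 21 of 37 genes. RUNX1 had 21, RUNX2 8 and BNC2 8. Growth factor receptors and ligands had 13.1 per Mb, led by NRG1, the receptor gene ROR1 (13) and PDGFC (5), a PDGF ligand. TGF-beta and BMP signalling had 13.5 per Mb (exact Poisson 95% interval 8.64 to 20.1), and members were found in 11 of 30 genes, among them LTBP1, SMURF2 (5) and SMAD6 (4).

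The other 2 lists had lower values than all genes. Long neuronal and synaptic genes had 2.48 members per Mb (exact Poisson 95% interval 2.07 to 2.95), although 30 of 63 held at least 1. The list had 128 members, with 22 in NRXN3, 12 in TENM2 and 12 in CACNA2D3. Hepatocyte genes, the list of the other main cell type of the liver, had members in 2 of 26 genes, with 1 each, among them the complement gene C5 (2.91 per Mb, interval 0.353 to 10.5). With so little sequence (0.686 Mb) the density of this list cannot be told from that of all genes.

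Values were looked up for 19 genes, most of which the study discusses, with CCN1, CCN2, LOX and TIMP1 added as known genes of TEAD activity or fibrosis. Of the 19, 12 have no deep intronic sequence, among them COL1A1, COL1A2, ACTA2 and PDGFRB. Of the other 7, COL5A2, BNC2, TEAD1 and TEAD4 held a member, and YAP1 (54.2 kb), PPARG (29.0 kb) and COL3A1 (7.76 kb) held none. The 7 members of COL5A2 had signal values of 241.4, 216.0, 129.7, 84.6, 82.2, 57.7 and 41.0. Those of 216.0 and 82.2 carried a TEAD motif, and 6 of the 7 lay in the first intron, which is 69058 bp long. In COL5A2 the strongest member thus had no TEAD motif.

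The 8 members of BNC2 had signal values of 125.4, 83.3, 83.1, 72.4, 56.4, 53.7, 52.0 and 39.9. Those of 125.4 and 83.1 carried a TEAD motif, with centres 12 and 23 bp from the summit, and that of 52.0 an AP-1 motif. TEAD1 had 4 members with signal values of 145.8, 70.2, 51.7 and 49.7, of which that of 51.7 carried a TEAD motif. TEAD4 itself had 1 weak member, in intron 2 of 12, with a signal value of 31.4 and no motif.

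The study also gives lists of genes from cells in which OGT, the enzyme that adds O-GlcNAc to proteins, was inhibited (OGTi). These lists come from other samples of the study and are not independent of its design. Genes listed for loss of H3K27ac, a mark of active regulatory elements, had 18.5 members per Mb (exact Poisson 95% interval 17.2 to 19.9). Members lay in 230 of the 566 listed genes with deep intronic sequence (40.6%, against 21.6% of all such genes). These 230 are 11.1% of all host genes. Only 66.3% of the entries of that list matched a protein-coding gene, so the values hold for those. The top genes lowered under OGTi in LX-2 (499 entries, not all changed genes) had 14.6 per Mb (interval 13.2 to 16.2). Members lay in 121 of 282 of these genes (42.9%), with NRG1, TENM2, LPP, THSD7B and AOPEP in the lead. The top genes raised under OGTi (500 entries) had 4.68 per Mb (interval 3.70 to 5.83), and VEPH1 had the most members, 9. Members lay in 41 of 213 of these genes (19.2%), near the 21.6% of all genes. The study also used published fibrosis gene sets, which do not come from OGT inhibition. Of these, the liver fibrosis matrisome had 15.8 per Mb and the liver fibrosis set 13.6 per Mb. No test was run between the lists.

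Chromosomes differed in density. Chromosome 5, which holds PDE4D and SEMA5A, had 10.9 members per Mb (exact Poisson 95% interval 9.86 to 12) and the X chromosome 2.66 (interval 2.13 to 3.28). All other peaks had 8.87 per Mb on chromosome 5 and 2.95 on X. On chromosome 21 the members had 10.7 per Mb and all other peaks 4.96, and on chromosome 13 the values were 8.18 and 5.62. Chromosome 21 has 71 members, of which RUNX1 held 21 and HSF2BP 11.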

How the data were processed

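TEAD4 ChIP-seq of DMSO-treated LX-2 cells was analysed from 1 peak list, which the authors made from replicates 1 and 3 by mapping single-end reads to hg38 with Chromap and comparing the replicates with the ENCODE IDR pipeline. The peak caller is not given in the sources used here. Each peak of the deposited list has a score, which is its scaled IDR, and a signal, which is the caller's enrichment value, and the deposited −log10 q-value and the summit offset follow. The layout and the range of values gave these meanings, since the list has no header. For 4 peaks, 1 of them a member, the offset reaches the end of the peak.

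Genes, exons and TSSs came from GENCODE release 44. The summit (start plus offset) decided the class. Motifs were counted on both strands by exact match within 100 bp of the summit. Groups of peaks were compared by logistic models (odds ratios) or linear models of log2 signal, with standard errors clustered on 24 chromosomes and two-sided Wald tests. Adjustment was by Benjamini-Hochberg over 8 motif, 3 signal, 3 neighbour and 5 flanking comparisons. Peaks near each other are not independent, so these p-values are approximate. A member in overlapping genes counted for each. Overlapping members were counted separately, and merging them leaves 4448 regions. Named are the hosts of the 10 strongest members, the 10 genes with the most members, the 10 densest, the 3 leading genes of each list and 19 genes looked up by name. Members, lists and tests were chosen with earlier results of these data known. Some genes and 1 list that the rule names are not reported here. The code was tested on simulated data. Models were run in statsmodels 0.14.6, with pysam 0.24.0 for sequence, under Python 3.11.15.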

Additional observations from a re-analysis of the deposited data

How the results depend on the processing

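No paired analysis was possible because each peak has 1 value for both replicates. No replicate was left out, since none has values of its own. Of 198 alternative values for 22 results, 153 counted as unchanged. For tested results this means the same direction and side of the threshold. The share of members, the first-intron share and the number of host genes have no test. There it means a value inside the main interval or, for host genes, of similar size. The flanking comparisons kept direction and side of the threshold throughout.

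AP-1 against all other peaks lost its call in the stronger peaks, those above the median signal value (odds ratio 1.12). RUNX lost it at score 1000 (1.10), in the stronger peaks (1.03), with merged peaks (1.13), at 25 kb (1.16), with 1 TSS per gene (1.09), within 50 bp (1.11) and with GC content (1.05). Signal against intergenic peaks passed with merged peaks (ratio 0.969), at 5 kb (0.966) and with peak width (0.970). A neighbour against nearer introns passed above the median signal value (0.799), at 5 kb (0.835) and with 1 TSS per gene (0.783), and against all other peaks at 50 kb between summits (1.10). The neighbour comparisons are not independent of the rule, which sets the distance to a TSS.

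The direction turned, without passing, for TEAD against all other peaks at 25 kb (1.00). Against nearer introns TEAD turned at score 1000 (0.976), in the stronger peaks (0.965), at 5 kb (0.959), with 1 TSS per gene (0.992), within 50 bp (0.986) and 250 bp (0.991), with signal as covariate (0.995) and for CATTCC (0.941). AP-1 turned against nearer introns above the median signal value (0.994) and within 250 bp (0.961), and against intergenic peaks with 1 TSS per gene (0.976) and within 250 bp (0.980). Signal turned against all other peaks with GC content (1.00) and against nearer introns in the stronger peaks (0.999) and at 5 kb (0.992). A neighbour turned against all other peaks at score 1000 (0.988), in the stronger peaks (0.920), at 25 kb (0.986) and at 5 kb between summits (0.985), and against intergenic peaks with merged peaks (1.00), at 5 kb (1.01) and at 50 kb between summits (1.03). The cause was not tested. The share of members was 30.8% at 5 kb, 11.9% at 25 kb and 35.3% with 1 TSS per gene. The first-intron share was 24.0% at 25 kb, 24.8% with 1 TSS per gene and 49.4% with any transcript, and 1079 host genes remained at 25 kb.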

Other observations

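The weakest members differed from the rest in their sequence. In 157 members (3.25%) the q-value was above 0.05, and their signal values ran from 6.61 to 14.5. A TEAD motif was found in 5 of them (3.18%, Wilson 95% interval 1.37 to 7.24%) and an AP-1 motif in 7 (4.46%, interval 2.18 to 8.92%), beside 2.93% and 3.35% in the flanking windows of all members. Of these 157 members, 153 overlapped a stronger peak of the list, while 381 of all 4824 members did. Other peaks of the list with such q-values (517) held the TEAD motif in 4.26%. Among the 4066 members that overlapped no other peak, TEAD was found in 24.1% and AP-1 in 29.6%.

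Members with no other summit within 10 kb held AP-1 in 30.9% (Wilson 95% interval 29.2 to 32.8%) and TEAD in 24.0%, and members with one held them in 24.2% (interval 22.5 to 26.0%) and 21.2%. The members with one include the 758 that overlapped another peak and all 157 with a q-value above 0.05, which held few motifs. These shares thus do not describe separate neighbouring peaks alone. The RUNX motif was found in 12.2% of members with neither TEAD nor AP-1 (interval 11 to 13.6%), in 8.37% with AP-1 alone, 9.26% with TEAD alone and 5.26% with both (interval 3.04 to 8.97%). Signal value and peak width moved in opposite directions (Spearman's rho -0.63 over the members), and the median and the upper quartile of the width were both 444 bp.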
